A study of Sus scrofa with 6 samples.

Results

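The high-numbered pig microRNAs (miRNAs) are the listed mature miRNAs whose name carries an integer of 4331 or more. They were chosen by name alone, and 30 of the 326 names in each deposited table met the rule. They fell into a block of 8 names from miR-4331 to miR-4339 and a block of 22 names from miR-7134 to miR-7144. The study measured small RNA by sequencing in denuded oocytes, from which the surrounding cumulus cells had been removed, of prepubertal gilts. Large-follicle oocytes (LO) came from follicles of 3 to 6 mm, aspirated with a 20-gauge needle and a 10 mL syringe. Small-follicle oocytes (SO) came from follicles under 2 mm, aspirated with a 23-gauge needle and a 5 mL syringe. Each group had 3 libraries, no treatment and no genetic change is given for either, and the series is titled as a study of developmental competence. The sources used here do not give how many animals or oocytes went into a library, so p-values measure only the spread between these libraries.

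A miRNA is cut from a hairpin precursor by the nucleases Drosha and Dicer. Either arm of the hairpin, called 5p or 3p, can be loaded into an Argonaute protein, and the loaded arm finds its messenger RNAs mainly through its seed, bases 2 to 8 from the 5′ end. Registry numbers are handed out in order of submission and are shared by orthologs, so widely conserved and abundant miRNAs mostly carry low numbers and high numbers mark later entries. A high number by itself says nothing about the age or the function of the hairpin.

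The 11 high-numbered miRNAs with at least 1 read are shown because all values below rest on them. The letters are those of the deposited tables, with T for U, written 5′ to 3′ with the seed in capitals.
miR-7134-3p: aTGCGGAAcctgcggatacgg
miR-7134-5p: aTGTCCGCgggttccctatcc
miR-4332: cACGGCCGccgccgggcgcc
miR-7142-3p: tTTGTTGGctcctctgaagtga
miR-4334-3p: tCCCTGTCctccaggagctc
miR-7139-5p: cCATTCCTtcgtctgtgcactag
miR-7135-3p: aTCTGTCTgtgtctctgagcag
miR-7135-5p: tCTCTGAGacactgactgtgg
miR-4337: aGGGTATAtaagccttcactgg
miR-7143-3p: tCTGCACTtgaagctgagactga
miR-7144-5p: aCTTTCCCgggatttggagcgc
No seed was shared between any 2 of these 11 names. The remaining 19 names had 0 reads in all 6 libraries.

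Detection was lower than in any other range of numbers. A read was found in at least 1 library for 11 of the 30 high-numbered miRNAs (36.7%), beside 242 of all 326 names (74.2%). The share was 193 of 244 names (79.1%) for let-7 and numbers under 500, 25 of 32 (78.1%) for numbers from 500 to under 1000 and 13 of 20 (65.0%) for numbers from 1000 up to the limit. These shares are descriptions, with no test between the ranges. Only 1 high-numbered miRNA, miR-7134-3p, was read in all 6 libraries (3.33%), beside 130 of all names (39.9%). The names nearest the limit on either side, miR-3613 below and miR-4331 above, both had 0 reads in every library.

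**Figure D1:**
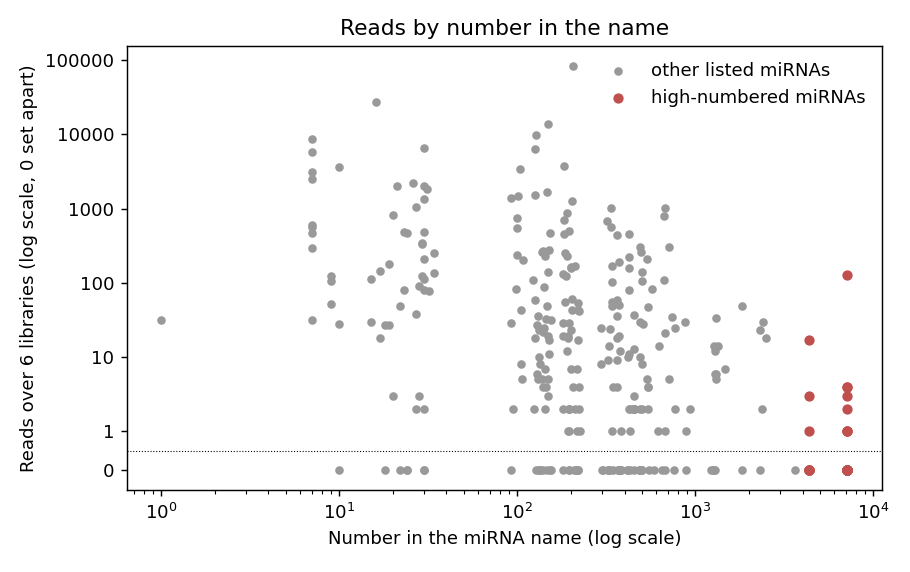
Reads summed over 6 libraries (log axis, names with 0 reads on the lowest line) against the number in the name (log axis), 1 point for each of the 326 listed miRNAs. The high-numbered miRNAs lie at the right, where miR-7134-3p with 128 reads and miR-4332 with 17 are the highest points and 19 names lie on the line for 0.

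In reads the high-numbered miRNAs were a trace of the profile. Together they held 165 of 218890 listed miRNA reads (0.0754%), although they make up 9.20% of the names. miR-7134-3p alone held 128 of the 165 reads (77.6%), and the other 29 names shared 37. A count of 0 over all listed reads allows a share of up to 0.00137% for each of the 19 names without a read, taking 3 reads as the limit. Intervals and limits given here cover counting error only, since the reads are not known to be independent molecules.

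The libraries differed in depth, which sets what a low value can mean. Listed miRNA reads ran from 7755 to 42541 in LO and from 44964 to 55230 in SO, so each LO library was shallower than each SO library. One read was worth 0.702 to 2.17 reads per 1000000 (RPM) in LO and 0.457 to 0.522 RPM in SO, where the 1000000 refers to a library total set by the authors. The limit for a count of 0 was 6.50 RPM in LO replicate 2 and 1.37 RPM in SO replicate 3. Fixed markers of cells other than the oocyte were also read. Of 8 granulosa and cumulus markers all 8 were read, holding 1.53% to 2.98% of listed reads in LO and 1.29% to 1.84% in SO. Most of these reads were of miR-21 (1992) and miR-31 (1817), while miR-503 had 107 and each of the rest 12 or fewer. Mean RPM was higher in LO for miR-21 (267 against 218 in SO) and miR-31 (310 against 175). It was lower in LO for miR-503 (9.40 against 13.1). All 6 listed blood markers held 0.0235% to 0.0645% in LO and 0.0133% to 0.208% in SO. Theca and stroma markers, 4 of 5 with a read and miR-214 at 0, held 0.240% to 0.438% and 0.185% to 0.324%, and both endothelial markers 0.0306% to 0.0645% and 0.0137% to 0.0489%. In such pooled RNA, fewer cells of a type and less RNA per cell cannot be told apart.

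miR-7134-3p was the leading high-numbered miRNA in every library. Its reads numbered 31, 4 and 24 across LO replicates 1 to 3, against 26, 30 and 13 across SO replicates 1 to 3. In RPM these were 53.8, 8.67 and 16.9 in LO and 13.6, 15.6 and 5.94 in SO. LO replicate 1 stood above the other 5 libraries, which overlapped between the groups. Its 95% exact Poisson interval, 36.6 to 76.4 RPM, lay above that of each other library, of which the highest upper bound was 25.1 RPM in LO replicate 3.

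**Figure D2:**
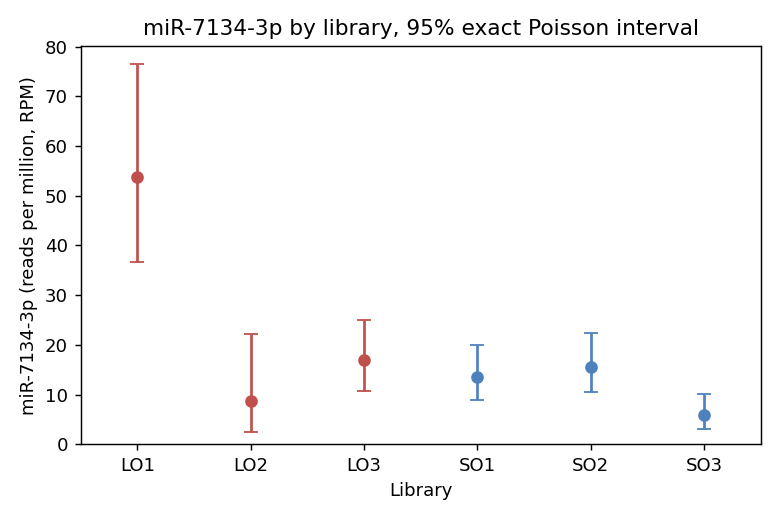
miR-7134-3p in reads per 1000000 (RPM) for each library, LO in red and SO in blue; bars are 95% exact Poisson intervals of the read count. LO replicate 1 lies at 53.8 RPM and the other 5 libraries between 5.94 and 16.9 RPM.

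Mean miR-7134-3p was 26.5 ± 24.1 RPM for LO against 11.7 ± 5.11 RPM for SO (SD over 3 libraries each). The log2 fold change, LO over SO on log2(RPM + 1), was 0.83 (SE 0.65; limma, unadjusted p = 0.205, FDR 0.780 over 104 miRNAs). The difference did not pass an FDR (false discovery rate) of 0.05. miR-7134-3p was the 1 high-numbered miRNA with enough reads to be tested, so 0 of 1 was called, beside 0% of the 104 tested miRNAs by limma and 1.92% each by edgeR and DESeq2. edgeR gave miR-7134-3p a log2 fold change of 0.71 (FDR 0.427), and DESeq2 gave 0.68 (adjusted p 0.522). An unadjusted limma p under 0.05 was found for 3.85% of the tested miRNAs, miR-7134-3p not among them. On the deposited scaling the 104 tested miRNAs had a median of 0.29, and 69.2% of them were higher in LO. With TMM scaling, which centres the libraries on each other, that median was 0.05 and miR-7134-3p was at 0.58.

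LO replicates 1 and 2 set the size of this difference. Without LO replicate 1 the log2 fold change was 0.14 (limma FDR 0.987), and without LO replicate 2 it was 1.40 (FDR 0.0600, where 17.3% of all tested miRNAs were called). Without SO replicate 3 it was 0.44 (FDR 0.992). The high value in LO replicate 1 was shared with much of the profile. Of the 104 tested miRNAs, 65 (62.5%) had their highest RPM there. The ratio of LO replicate 1 to the median of the other 5 libraries was 3.97 for miR-7134-3p and 1.76 at the median of all tested, and 12 tested miRNAs, miR-7134-3p included, had a ratio at least as high. LO replicate 1 also had the largest share of granulosa and cumulus markers, 2.98%, beside 1.29% to 2.04% in the other 5 libraries. Among the tested markers the same ratio was 2.32 for miR-21, 2.34 for miR-31 and 0.512 for miR-503. The part of these markers in the result was not tested.

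By mean RPM over the 6 libraries miR-7134-3p ranked 70 of 326. Within LO replicates 1 to 3 it ranked 57, 70 and 78, and within SO replicates 1 to 3 it ranked 83, 70 and 89. The next high-numbered miRNA by mean RPM, miR-4332, ranked 154, and the other 9 detected names ranked from 179 to 241.

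miR-4332 was read in 5 of the 6 libraries. LO replicates 1 to 3 gave 3, 0 and 4 reads of it, and SO replicates 1 to 3 gave 3, 6 and 1. In RPM this was 5.21, 0 and 2.81 in LO and 1.57, 3.13 and 0.457 in SO, and the groups overlapped. The 0 in LO replicate 2 allows up to 6.50 RPM, more than any value measured for miR-4332. Its sequence is built almost wholly of G and C, which make up 95% of its 20 bases, the highest share of the 326 listed names. RefSeq's pig gene table at hand holds no entry for this precursor.

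**Figure D3:**
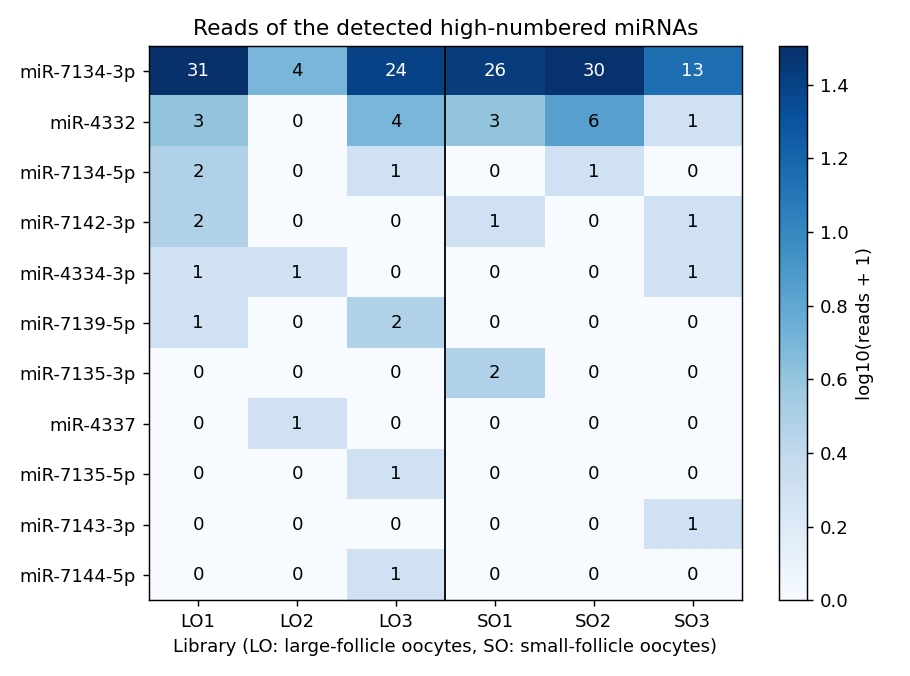
Reads of the 11 high-numbered miRNAs with any read (rows) in the 6 libraries (columns; colour is log10(reads + 1), numbers are reads). miR-7134-3p is read in all 6 columns, miR-4332 in 5, and no other name exceeds 2 reads in any library.

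A further 3 names were read in 3 libraries each, with at most 2 reads in any of them. miR-7134-5p, the other arm of the leading precursor, had 2 reads in LO replicate 1 and 1 each in LO replicate 3 and SO replicate 2. miR-7142-3p had 2 reads in LO replicate 1 and 1 each in SO replicates 1 and 3. miR-4334-3p had 1 read each in LO replicates 1 and 2 and SO replicate 3. Each of these names occurred in both groups, at counts too low to order them.

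The last 6 detected names were seen in 1 or 2 libraries. miR-7139-5p had 1 read in LO replicate 1 and 2 in LO replicate 3, and none in SO. miR-7135-3p had 2 reads in SO replicate 1. miR-4337 in LO replicate 2, miR-7135-5p and miR-7144-5p in LO replicate 3, and miR-7143-3p in SO replicate 3 had 1 read each. Over both groups 5 of the 11 names occurred in both, 4 in LO alone and 2 in SO alone. The names seen in 1 group had 1 to 3 reads in all, too few to assign them to a group. How many of all names with a read occurred in 1 group alone was not counted. With every name that had a read entered in the limma fit, 0 of the 11 high-numbered and 0% of 242 miRNAs passed FDR 0.05. miR-7139-5p alone of the 11 had an unadjusted limma p under 0.05 in that fit (0.0497, FDR 0.829), among 6 of the 242.

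The next comparison was how many high-numbered miRNAs a library shows. LO replicates 1 to 3 showed 6, 3 and 6 of the 30 names, and SO replicates 1 to 3 showed 4, 3 and 5. The mean was 5 ± 1.73 names per LO library and 4 ± 1 per SO library (SD, n = 3 each). The difference of 1 name is within the spread of the libraries (exact two-sided permutation p = 0.6). The groups overlapped at these depths. At an equal depth of 7755 listed reads, the number expected for LO replicates 1 to 3 was 4.10, 3 and 2.42, against 1.75, 1.85 and 1.49 for SO replicates 1 to 3. These did not overlap, and the difference of 1.48 names had p = 0.1 by exact two-sided permutation, below which a design of 3 against 3 libraries cannot go. At that depth all listed names were also more often seen in LO, at 148 to 156 names against 137 to 146 in SO. Back at the full, unequal depths, counting a name from 5 reads on turned the difference to -0.667. At that cut miR-7134-3p did not count in LO replicate 2 (4 reads, 8.67 RPM) but did in SO replicate 3 (13 reads, 5.94 RPM). Likewise miR-4332 counted in SO replicate 2 alone (6 reads, 3.13 RPM) and not in LO replicate 1 (3 reads, 5.21 RPM).

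As a share of listed miRNA reads, the high-numbered names took 0.229%, 0.0774% and 0.0776% of LO replicates 1 to 3. Of SO replicates 1 to 3 they took 0.0579%, 0.0823% and 0.0334%. LO replicate 1 was again the highest, with a 95% exact Clopper-Pearson interval of 0.164% to 0.312%, and the other 5 libraries overlapped between the groups. Averaged over libraries the share was 0.128% ± 0.0875 for LO and 0.0579% ± 0.0245 for SO (SD, n = 3 each). By an exact two-sided permutation test the gap of 0.0701 percentage points had p = 0.3. Without LO replicate 1 the difference fell to 0.0196 percentage points.

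**Figure D4:**
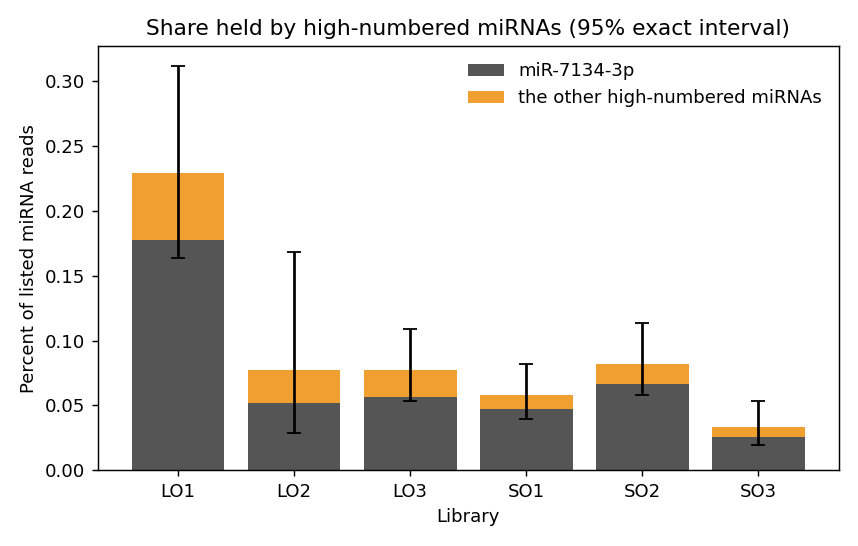
Percent of listed miRNA reads held by miR-7134-3p (grey) and by the other 29 high-numbered miRNAs (orange) in each library; the line is the 95% exact interval of the total. LO replicate 1 reaches 0.229%, and the other 5 libraries lie between 0.0334% and 0.0823%.

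Without miR-7134-3p the groups did not overlap, but this order rested on few reads. LO replicate 2 had 1 read each of miR-4334-3p and miR-4337. Leaving out either name alone would put LO replicate 2 below SO replicate 2. The other 29 names took 0.0515%, 0.0258% and 0.0212% of listed reads in LO replicates 1 to 3, from 9, 2 and 9 reads. In SO replicates 1 to 3 they took 0.0109%, 0.0156% and 0.00785%, from 6, 7 and 4 reads. Every LO library lay above every SO library, 0.0214 percentage points apart on average (exact two-sided permutation p = 0.1). In all, 20 of 67760 listed reads in LO and 17 of 151130 in SO belonged to these names. Among the 104 tested miRNAs, taken singly in RPM and not as a summed share, 3.85% had group ranges that did not overlap. The neighbouring range of names, numbers 1000 up to the limit, held 0.0987% ± 0.0527 of the LO reads and 0.0933% ± 0.00423 of the SO reads (n = 3 each; p = 1 by exact permutation, adjusted over 4 ranges 1). Numbers from 500 to under 1000 held 1.49% ± 0.133 of the LO reads and 1.24% ± 0.111 of the SO reads (n = 3 each, exact permutation p = 0.1, adjusted 0.4). In that range too every LO library (1.41% to 1.64%) lay above every SO library (1.17% to 1.37%).

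Both arms were listed for 12 high-numbered precursors, miR-4334 and the 11 from miR-7134 to miR-7144. Both arms had reads for 2 of them (miR-7134 and miR-7135), 1 arm alone for 5 and neither arm for 5. Of the 65 other precursors listed with both arms, 39 had reads for both, 24 for 1 arm and 2 for neither. The 5 silent partners of a detected arm were miR-4334-5p, miR-7139-3p, miR-7142-5p, miR-7143-5p and miR-7144-3p. With 1 to 4 reads behind each of these 5 pairs, the arms could not be ordered at this depth. For miR-7139, for example, 0 of 3 reads came from the 3p arm (95% exact Clopper-Pearson interval up to 70.8%).

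miR-7134 was the 1 precursor with enough reads to weigh its arms. Over the 6 libraries 128 of 132 reads (97.0%, 95% exact Clopper-Pearson interval 92.4 to 99.2) came from the 3p arm. The 5p arm took 3 of the 62 LO reads (4.84%, 1.01 to 13.5) and 1 of the 70 SO reads (1.43%, 0.0362 to 7.70). These intervals overlapped widely. The 5p reads came from LO replicates 1 and 3 and SO replicate 2. In LO replicate 2 and SO replicates 1 and 3 no 5p read was found, so those libraries set only an upper limit on the 5p share. The planned test of the arm ratio between the groups is therefore void, and its result is not reported.

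The 2 arms of each pair were searched for stretches of complementary letters, at any offset between the arms. No expectation for unrelated sequences was computed, so a short run does not show pairing within the hairpin. The arms of miR-7134 are shown with those of miR-7137 and miR-7141, which have the longest paired stretch, and capitals mark the longest run in which each base is the complement of its partner in the other arm.
miR-7134-5p: atgtccgcgGGTTCCctatcc
miR-7134-3p: atgcGGAACCtgcggatacgg
miR-7137-5p: cggGGGAACTCCCAGACCAGC
miR-7137-3p: aGCTGGTCTGGGAGTTCCCggg
miR-7141-5p: gACGGTTTGGACGTTAAGAac
miR-7141-3p: TCTTAACGTCCAAACCGTtcc
The run is 6 bases in miR-7134 and 18 bases in miR-7137 and miR-7141. Its median over the 12 high-numbered pairs was 6.5 bases, beside 7 over the 65 other pairs. A run of 12 or more bases was found in 2 of the 12 and in 2 of the 65 pairs. All 4 arms of miR-7137 and miR-7141 had 0 reads in every library.

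The sequence of miR-4334-3p lies wholly within that of an older name. Its 20 bases are the first 20 of miR-339 and of miR-339-5p, which are listed separately, and the 3 are shown with the seed in capitals.
miR-4334-3p: tCCCTGTCctccaggagctc
miR-339: tCCCTGTCctccaggagctca
miR-339-5p: tCCCTGTCctccaggagctcac
The 3 names share 1 seed and differ only in length, 20, 21 and 22 bases. miR-339 had 55 reads and miR-339-5p 102 over the 6 libraries, so miR-4334-3p had 3 of the 160 reads of the 3 names (1.88%, 95% exact Clopper-Pearson interval 0.388 to 5.38). Reads of these names cannot be told apart by sequence except by where they end, and the sources used here do not give how such reads were assigned. Without miR-4334-3p, 10 high-numbered names had reads.

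**Figure D5:**
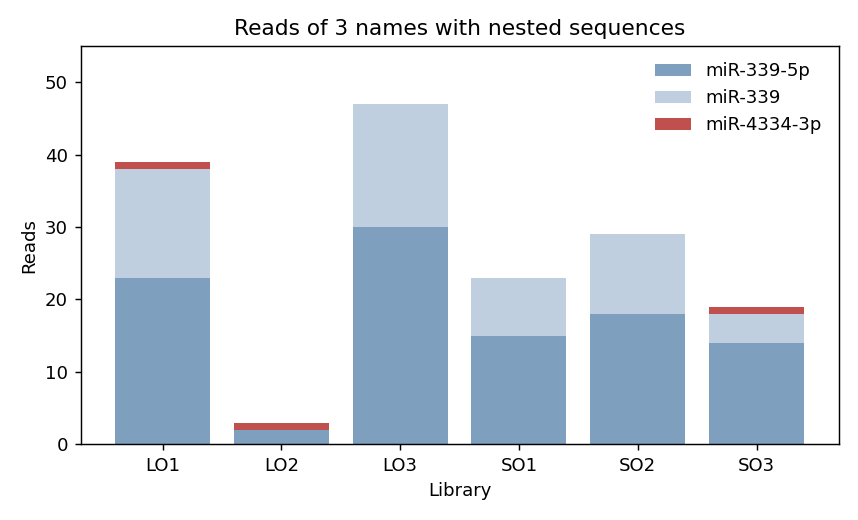
Reads in each library of miR-339-5p, miR-339 and miR-4334-3p, stacked, whose sequences lie within one another. miR-4334-3p adds 1 read in LO replicate 1, LO replicate 2 and SO replicate 3 and none elsewhere, out of 160 reads for the 3 names.

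The 1 other seed shared by a high-numbered name joined miR-7135-5p, with 1 read, and miR-4339, with 0. Seeds were shared with some other listed name by 3 of the 30 high-numbered miRNAs (10.0%) and by 102 of the other 296 (34.5%). The median length was 22 bases in both sets. The median G and C content was 59.1% for the high-numbered names (45.5% to 95%) and 47.6% for the others (18.2% to 80.0%). Within the high-numbered set it was 52.4% for the 11 names with a read and 59.1% for the 19 without. T, the letter that stands for the U favoured by Argonaute at the first position, opened 10 of the 30 high-numbered names (33.3%) and 138 of the other 296 (46.6%). Among names with a read these were 4 of 11 (36.4%) and 122 of 231 (52.8%). These are descriptions of the list, with no test.

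RefSeq's gene table, of assembly Sscrofa11.1, held 16 of the 18 high-numbered precursors, and 12 of the 16 lay within the span of another gene. That of miR-7134 lies within TNRC6B, which encodes a scaffold protein of the miRNA silencing complex. That of miR-7142 lies within MARK2, a kinase of cell polarity, that of miR-7139 within E2F7, a repressor of cell cycle genes, and that of miR-7135 within ABCC1, a multidrug transporter. The precursors of miR-4334, miR-4337 and miR-7144 lie within DNPEP, an aminopeptidase gene, EXOC4, a gene of the exocyst, and ARGLU1. miR-7143 lies within a long noncoding RNA gene. The table gives no strand and no exons, so neither orientation nor intron can be stated, and coordinates are not printed because the submitters' processing notes name another build. None of these genes was measured.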

How the data were processed

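Small RNA of 3 LO and 3 SO libraries was prepared with the mirVana and QIAseq miRNA kits, per the labels' protocols. Build Sscrofa10.2 and the tools cutadapt, bcl2fastq, edgeR and Bowtie2 2.2.2 come from the submitters' processing notes, which here carry neither their roles nor their order. The deposited values are headed TPM but are whole multiples of 1 step per library, so they were read as RPM; in units of that step 100% of values above 0 were whole reads (tolerance 0.01 read). The sources used here do not say whether molecular identifiers were used.

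High-numbered names, fixed lists and tests were chosen with earlier results of these data known. The main test was limma 3.58.1 (R 4.3.3) with an intensity trend on log2(RPM + 1) for the 104 names passing edgeR's filterByExpr, with Benjamini-Hochberg adjustment; its SE follows the trend, and the scale understates changes of low miRNAs. edgeR 4.0.16 (quasi-likelihood, TMM) and DESeq2 1.42.0 on recovered reads, checked on simulated data with limma, were alternatives. The simulated counts had the same spread for every miRNA and no outlying library, so this check does not cover the replicate differences given below. Detection and shares were compared by exact permutation in scipy 1.17.1 (adjusted p 0.6 and 0.45 over 3 planned tests). The third planned test, of the arm ratio of miR-7134, is void and not reported, since 3 of the 6 libraries had no 5p read; numbers at equal depth are exact hypergeometric expectations. Replicates of each group differed by more than sampling noise (chi-square over degrees of freedom 2.71 to 16.8). Named miRNAs with each library's value are those tested or read in at least 3 libraries. Other names with a read are given with their reads, and names at 0 were counted, and named where the other arm had reads. miR-3613, miR-4331 and the arms of miR-7137 and miR-7141 were named after their values were seen.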

Additional observations from a re-analysis of the deposited data

How the results depend on the processing

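The difference of 1 name in the number detected turned to -0.667 when a name counted from 5 reads on (p = 0.6, exact permutation). Leaving out each library in turn gave differences of 0.5 to 2 names, 0.0196 to 0.0954 percentage points in share and 0.14 to 1.40 in the log2 fold change of miR-7134-3p. Over its 14 alternatives the FDR of miR-7134-3p by limma, edgeR or DESeq2 ran from 0.0600 to 0.992, all with a higher mean in LO and none past 0.05. The tests of number and share could not pass 0.05, since the smallest exact p is 0.1, so their p-values say nothing about stability. Without miR-4334-3p, an alternative chosen after seeing the data, the difference in number was 0.667 and in share 0.0646 percentage points.

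Deviations from the group means correlated at -0.34, -0.22 and 0.08 between same-numbered libraries, and at -0.29 to 0.43 between differently numbered ones. No pairing by replicate number was seen, but with 3 libraries per group these correlations cannot exclude it. With the replicate number as a block the limma FDR of miR-7134-3p was 0.853, and sign-flip p-values over the 3 pairs were 0.5 for the number detected (difference 1) and 0.5 for the share (0.0701), where 0.25 is the smallest possible. LO libraries are shallower than SO libraries, and 10 of the 11 detected high-numbered names have 17 reads or fewer in all.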
